A study of Homo sapiens with 4 samples.

Results

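TRIM24, TRIM28, TRIM33, TRIM66 and SPOP were examined for binding of TRIM24 and TRIM28 at their own loci. The first 4 genes make up the TIF1 family, and SPOP encodes the ubiquitin ligase adaptor that acts on TRIM24. They were taken by name, as 5 of the 20163 protein-coding genes of the GENCODE annotation on GRCh37 (hg19). Binding sites were assigned to a gene when the centre of the site lay within 2 kb of a transcription start site (TSS), in the gene body or in the 20 kb on either side. Of 107370 sites called in the series, 60 lay at these 5 loci.

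The study mapped TRIM24 and TRIM28 by chromatin immunoprecipitation and sequencing (ChIP-seq) in LNCaP, an androgen-responsive human prostate cancer cell line. Cells were kept in 5% charcoal-stripped serum for 3 days to remove androgen and then received ethanol, the vehicle, or 10 nM R1881, a synthetic androgen, for 16 h. TRIM24 was precipitated through an HA tag from LNCaP cells that stably express HA-TRIM24, and the endogenous TRIM28 through a TRIM28 antibody. Each protein has 1 library per treatment, 4 in all, so there is no replicate error and no difference between conditions was tested. All 4 are labelled wild type. By their labels the TRIM28 libraries come from LNCaP cells without the tag, whereas the study's results text and legend describe HA-TRIM24 cells for both. Neither source used here gives the promoter that drives HA-TRIM24 or whether the cells are 1 clone.

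TRIM proteins carry a RING finger, B-boxes and a coiled coil, and the TIF1 members add a PHD finger and a bromodomain, which read the histone tail. TRIM24 is a coactivator of nuclear receptors. TRIM28, also called KAP1, is the corepressor of KRAB zinc finger proteins, which bring it to retroelements and to zinc finger gene clusters, where it recruits SETDB1 and heterochromatin proteins. TRIM33 takes part in TGF-beta signalling, and TRIM66 is the family member expressed mainly in testis. SPOP is the substrate receptor of a CUL3 ubiquitin ligase and is recurrently mutated in prostate cancer.

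The strength of a site is given as its normalized tag count, the tags under the site scaled to 10000000 tags per library. The TRIM24 libraries held 11606880 tags (ethanol) and 12884097 (R1881), and the TRIM28 libraries 25145171 (ethanol) and 14231181 (R1881). In that order the lists held 5232, 9363, 58201 and 34574 sites. Because 1 tag was worth between 0.398 and 0.862 normalized tags, each value could be turned back into whole tags, and the brackets below are exact Poisson 95% intervals on them. These cover counting error only. A site had to reach a minimum number of tags, so a locus without a call is a locus below 6.0, 5.4, 4.0 or 5.6 normalized tags in the same order, or under the local criteria of the caller, not one shown to be unbound.

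The sequences that carry the results are of 2 kinds. The first are coding exons that held TRIM24 sites. For exon 1 of TRIM24 the bases are those of the site called with ethanol, and capitals mark the bases also inside the site called with R1881. For the other exons the bases are those of 1 called site, and capitals mark the coding bases of the exon. All are from GRCh37, plus strand, and run 5′ to 3′.

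TRIM24 exon 1, chr7:138145328-138145482: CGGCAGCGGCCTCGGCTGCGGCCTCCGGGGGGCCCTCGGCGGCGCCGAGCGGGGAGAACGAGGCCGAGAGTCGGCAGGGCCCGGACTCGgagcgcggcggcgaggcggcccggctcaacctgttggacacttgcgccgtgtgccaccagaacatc
TRIM24 exon 7, chr7:138223403-138223559: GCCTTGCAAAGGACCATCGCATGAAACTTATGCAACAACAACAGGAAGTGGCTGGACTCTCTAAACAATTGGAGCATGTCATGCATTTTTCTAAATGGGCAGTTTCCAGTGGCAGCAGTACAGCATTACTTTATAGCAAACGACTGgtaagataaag
TRIM24 exon 9, chr7:138239417-138239573: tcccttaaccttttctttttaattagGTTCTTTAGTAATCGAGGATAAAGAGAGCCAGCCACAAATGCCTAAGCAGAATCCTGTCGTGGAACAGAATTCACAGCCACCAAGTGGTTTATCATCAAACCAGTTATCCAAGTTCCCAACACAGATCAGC
TRIM28 exon 13, chr19:59060807-59060961: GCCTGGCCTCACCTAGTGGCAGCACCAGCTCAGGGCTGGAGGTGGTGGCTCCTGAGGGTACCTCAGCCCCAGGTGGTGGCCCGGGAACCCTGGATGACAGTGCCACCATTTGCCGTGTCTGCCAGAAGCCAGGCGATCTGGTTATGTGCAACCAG
TRIM28 exon 16, chr19:59061495-59061651: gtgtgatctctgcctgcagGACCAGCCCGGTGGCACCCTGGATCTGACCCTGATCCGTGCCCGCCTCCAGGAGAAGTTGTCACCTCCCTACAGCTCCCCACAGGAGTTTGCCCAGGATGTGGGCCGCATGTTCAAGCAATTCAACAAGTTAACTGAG

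The second kind are the introns with the strongest TRIM28 sites of these genes, at which capitals mark the bases inside the sites of both treatments. The introns of TRIM24 are shown on the plus strand and that of TRIM33 on the minus strand, so that all read along their gene.

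TRIM24 intron 5, chr7:138212509-138212709: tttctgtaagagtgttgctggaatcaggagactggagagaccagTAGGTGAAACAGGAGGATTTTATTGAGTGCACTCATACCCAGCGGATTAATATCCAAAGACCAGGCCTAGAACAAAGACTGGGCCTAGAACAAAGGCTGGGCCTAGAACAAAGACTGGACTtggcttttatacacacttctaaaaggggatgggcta
TRIM24 intron 9, chr7:138250350-138250525: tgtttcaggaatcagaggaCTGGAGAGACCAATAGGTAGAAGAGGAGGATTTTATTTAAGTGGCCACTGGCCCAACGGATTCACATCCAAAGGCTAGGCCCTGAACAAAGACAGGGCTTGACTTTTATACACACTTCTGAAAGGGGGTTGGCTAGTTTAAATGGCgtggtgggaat
TRIM33 intron, chr1:115001221-115001399: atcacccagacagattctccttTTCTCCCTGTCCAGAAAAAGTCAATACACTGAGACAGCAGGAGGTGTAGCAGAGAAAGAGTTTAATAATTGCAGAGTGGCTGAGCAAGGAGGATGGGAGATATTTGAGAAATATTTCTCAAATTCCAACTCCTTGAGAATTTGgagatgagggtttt

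A site of TRIM24 protein was called at the 5′ end of its own gene under both treatments. The HA cells also carry an introduced TRIM24 coding sequence. Its tags cannot be told apart from those of exon 1, so occupancy of the gene itself is not shown. The TRIM24 gene runs on the plus strand of chromosome 7 from 138145004 to 138274741, with 19 exons in its canonical transcript. With ethanol the site lay at chr7:138145328-138145482 with 15.5 normalized tags (9.19 to 24.5, 18 tags). With R1881 it lay at chr7:138145260-138145416 with 14.0 (8.28 to 22.1, 18 tags). Both are centred in the coding part of exon 1, printed above, and the 2 libraries gave the same number of tags there. The ratio of R1881 to ethanol was 0.901, and its exact binomial 95% interval, which compares the libraries only, ran from 0.442 to 1.84. Among the genes with a TRIM24 site within 2 kb of a TSS, TRIM24 ranked above 91.1% of 2135 genes with ethanol and above 92.1% of 3711 genes with R1881. It was the strongest promoter site of TRIM24 protein among the TIF1 genes and SPOP with ethanol, and with R1881 it was exceeded by a site in TRIM28 that is centred in exon 16.

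With R1881, TRIM24 protein had 2 further sites in TRIM24, and both were centred in internal coding exons. The site in exon 7 had 7.8 normalized tags (3.72 to 14.3, 10 tags) and lay 78.5 kb from the TSS, and the site in exon 9 had 7.0 (3.19 to 13.3, 9 tags) at 94.5 kb. The exon 7 site covered 99.3% of the coding bases of that exon, 146 of 147, and overran it by the few intronic bases printed in lower case. In the exon 9 site 83.4% of the bases were coding. These are weak sites within their list, above 17.0% and 5.02% of its sites, and neither exon had a called site with ethanol.

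TRIM28 protein at TRIM24 was mostly called in introns. It had 9 sites in the gene with ethanol and 4 with R1881, of which 8 and 3 were intronic, whereas all 4 sites of TRIM24 protein were centred in exons. Coding exons make up 2.43% of the length of the gene. At the 5′ end TRIM28 had 7.2, 6.8 and 5.2 normalized tags with ethanol, at 0.2, 0.9 and 1.8 kb from the TSS, and 6.3 with R1881 at 0.6 kb. Of the bases of that R1881 site, 95.5% are coding bases of exon 1. If its cells carried HA-TRIM24, as the study's legend describes, its tags cannot be told apart from those of the introduced coding sequence. The 2 ChIPs used different antibodies, so their values are set side by side and not compared as levels. Within its own lists the TRIM28 promoter site at TRIM24 exceeded that of 44.6% of genes with ethanol and 5.95% with R1881. The sites of the 2 proteins at the 5′ end did not overlap by any base under either treatment. Their nearest centres were 171 bp apart with ethanol and 248 bp apart with R1881.

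The strongest TRIM28 site of the 5 loci lay in intron 5 of TRIM24, 67.6 kb from the TSS. It had 23.1 normalized tags with ethanol (17.5 to 29.8, 58 tags, chr7:138212509-138212673) and 28.8 with R1881 (20.7 to 39.1, 41 tags, chr7:138212553-138212709). It stood above 98.8% and 98.6% of the TRIM28 sites of those libraries, and its tag density was 27.96 and 36.94 times that of the surrounding 10 kb. The next was in intron 9, at 105.4 kb, with 16.3 normalized tags with ethanol (11.7 to 22.1) and 14.1 with R1881 (8.58 to 21.7). Intron 9 also held a site at 96.9 kb with 8.0 and 9.1, and a site at 104.2 kb with 10.3 that was called with ethanol only. Intron 1 held weaker sites with ethanol only, of 4.8 at 8.5 kb and 6.8 at 16.9 kb. The ratios of R1881 to ethanol at the 3 intronic sites called with both were 1.25, 1.15 and 0.862, and each interval covered 1. TRIM24 protein had no called site at any of these introns.

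**Figure D1:**
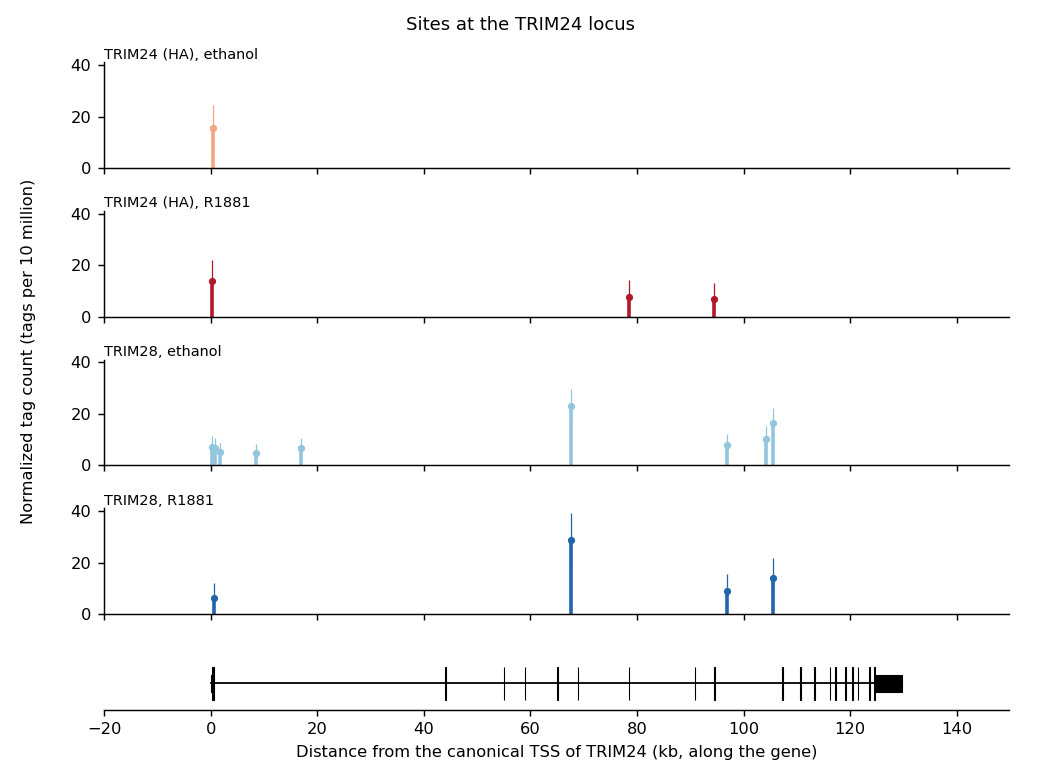
Sites at the TRIM24 locus in the 4 libraries. The horizontal axis is the distance from the canonical TSS in kb along the gene and the vertical axis the normalized tag count of each called site, with exact Poisson 95% intervals. Below is the canonical transcript, with tall boxes for coding exons and low boxes for untranslated exons. TRIM24 protein (HA) has sites at exon 1 (15.5 and 14.0) and, with R1881, in exons 7 and 9, whereas the highest TRIM28 sites (23.1 and 28.8) stand in intron 5.

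The sites of intron 5 and intron 9 resemble each other in sequence, as the lines printed above show. In a local alignment of the ethanol sites, 93 of 117 aligned positions were identical (79.5%), with a longest identical run of 14 bases, in the same orientation. The R1881 sites, which are shorter and shifted, gave 58 of 67 (86.6%), ranked 3 of 91 pairs by identical positions, after 67 of 107 (62.6%) and 64 of 99 (64.6%) between sites near TSSs. Among 528 pairs of TRIM28 ethanol sites at the 5 loci, 1 pair had more identical positions, 98 of 143 (68.5%), and that pair was of CpG-rich sites at the MZF1 promoter beyond the end of TRIM28. The alignment was made after the sequences had been read. No repeat annotation was used here, and what the shared sequence is was not tested.

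At the TRIM28 gene, sites of TRIM28 protein were called at its own promoter under both treatments, without an input library. The gene runs on the plus strand of chromosome 19 from 59055431 to 59062089, with 17 exons. With ethanol TRIM28 had 8.7 normalized tags (5.48 to 13.2) in exon 1, 0.5 kb from the TSS, and 6.4 (3.64 to 10.3) at -0.2 kb. With R1881 it had 9.1 (4.86 to 15.6) at 0.5 kb and 6.3 at the TSS (9 tags). The stronger site was called under both treatments, with a ratio of 1.04 (0.483 to 2.17). These are sites of middling strength, above 70.2% and 68.2% of the strongest TRIM28 promoter sites of other genes. The start of RN7SL525P, a non-coding pseudogene, lies within 2 kb of them as well.

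TRIM24 protein had a site in TRIM28 with ethanol and 3 with R1881, all in exons. With R1881, 2 lay in exon 1, with 7.8 normalized tags (3.72 to 14.3) at 0.4 kb and 8.5 (4.26 to 15.3) at 0.8 kb. The strongest, of 15.5 (9.48 to 24.0, 20 tags), lay 6.1 kb from the TSS at chr19:59061495-59061651. It contained the whole coding part of exon 16 and ended with it to the base. With ethanol the single site had 8.6 (4.13 to 15.8, 10 tags) and lay wholly within the coding bases of exon 13, 5.5 kb from the TSS. Exons 13 and 16 therefore hold sites in different libraries, and no site of TRIM28 protein was called in either exon. Both count as promoter sites under the 2 kb rule because short transcripts of TRIM28 start near them. Coding exons make up 37.6% of this compact gene, so a site in its body falls in one more readily than in TRIM24.

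**Figure D2:**
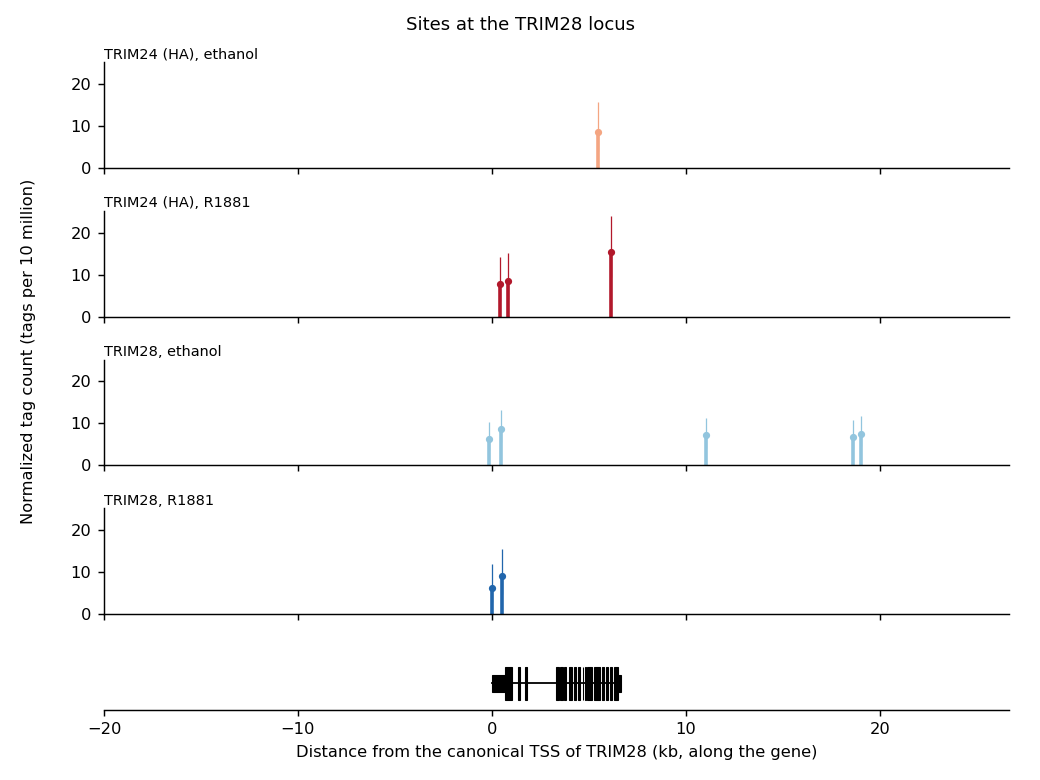
Sites at the TRIM28 locus, drawn as for TRIM24. TRIM28 protein has sites within 0.5 kb of the TSS under both treatments, TRIM24 protein has sites in exon 1 with R1881 only, and the highest bar (15.5) is the R1881 site of TRIM24 protein in exon 16.

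Beyond the 3′ end of TRIM28, TRIM28 protein had 3 sites with ethanol that lie at promoters of neighbouring genes. One of 7.2 normalized tags lay within 2 kb of TSSs of CHMP2A, an ESCRT subunit, and of UBE2M, a neddylation enzyme. The others, of 6.8 and 7.6, lay at MZF1, a zinc finger gene. None was called with R1881.

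At TRIM33, on the minus strand of chromosome 1 from 114935412 to 115053824, TRIM28 had a called site at the TSS under both treatments. It had 7.6 normalized tags with ethanol (4.55 to 11.8) and 8.4 with R1881 (4.36 to 14.7), and a further 5.6 in exon 1 with ethanol. The strongest TRIM28 site was again intronic, in intron 4 at 52.5 kb, with 9.5 with ethanol (6.12 to 14.2) and 13.4 with R1881 (8.04 to 20.8). A TSS of ENSG00000226984, which is not annotated as protein-coding, lies within 2 kb of that site in both libraries. The ratio of 1.4 was the highest of the 9 TRIM28 regions called under both treatments, and its interval ran from 0.724 to 2.66. Other sites of intron 4 had 7.6 at 53.7 kb with ethanol, 7.7 at 53.4 kb with R1881, and 5.2 and 5.6 at 75.9 and 75.8 kb. Intron 1 held sites of 4.4 and 4.8 with ethanol and 6.3 with R1881, and the 3′ flank held 7.2 and 7.7 at the same place and 6.4 with ethanol only.

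TRIM24 protein had no site at TRIM33 with ethanol and 2 with R1881, each of 7.0 normalized tags (3.19 to 13.3, 9 tags). One lay 0.2 kb upstream of the TSS, at chr1:115053991-115054147, and the other in intron 4 at 75.9 kb, within 167 bp of a TRIM28 site. At TRIM33 no site of TRIM24 protein was centred in an exon, unlike at TRIM24, TRIM28 and SPOP. The upstream site read, on the minus strand and with no capitals:

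TRIM33 upstream, chr1:115053991-115054147: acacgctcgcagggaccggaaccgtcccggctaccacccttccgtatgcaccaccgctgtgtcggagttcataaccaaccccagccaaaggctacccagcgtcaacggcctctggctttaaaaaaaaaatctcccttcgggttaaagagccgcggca

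TRIM66, on the minus strand of chromosome 11 from 8633584 to 8704241, shares its 5′ end with RPL27A, a ribosomal protein gene, and with the small nucleolar RNA SNORA3. TRIM24 protein had no site there with ethanol and 1 with R1881, of 11.6 normalized tags (6.52 to 19.2, 15 tags) at chr11:8704389-8704545, 0.3 kb upstream. That was above the strongest promoter site of 82.0% of genes with one. TRIM28 had a site with the same start with ethanol, of 5.6 (3.04 to 9.34), and another of 7.6 (4.55 to 11.8) at 0.1 kb. With R1881 no TRIM28 site was called within 2 kb of a TSS of TRIM66. The only TRIM28 site with R1881 had 5.6 (2.43 to 11.1) at -6.1 kb, and ethanol gave 6.4 at -6.4 kb, both within 2 kb of a TSS of RPL27A. Since all sites at the 5′ end are also near the start of RPL27A, sites of TRIM66 and of RPL27A cannot be told apart. The 3′ flank held 6.8 at 78.4 kb and 6.4 at the promoter of STK33, a kinase gene, both with ethanol.

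At SPOP, on the minus strand of chromosome 17 from 47676246 to 47755525, the strongest TRIM28 sites were at the 5′ end and the sites of TRIM24 protein near the 3′ end of the gene. TRIM28 had 8.0 normalized tags in exon 1 with ethanol (4.86 to 12.3) and 7.7 with R1881 (3.86 to 13.8), a ratio of 0.972 (0.421 to 2.13), and a further 5.6 at 0.7 kb with ethanol. TRIM24 protein had no site near that TSS. It had 7.8 with ethanol (3.55 to 14.7, 9 tags) in exon 9, at 76.1 kb, and 6.2 with R1881 (2.68 to 12.2, 8 tags) in exon 6, at 66.7 kb. Exon 9 was covered over 92.3% of its coding bases and exon 6 over 74.2%, in a gene of which coding exons are 1.42%. Both sites were among the weakest of their lists, above 3.86% and 0.224% of sites, and they count as promoter sites only through short transcripts that start inside the gene. TRIM28 had other sites with ethanol only, of 6.4 at -17.0 kb, 5.6 at 73.6 kb, between the sites of TRIM24 protein, and 4.8 at 92.4 kb.

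**Figure D3:**
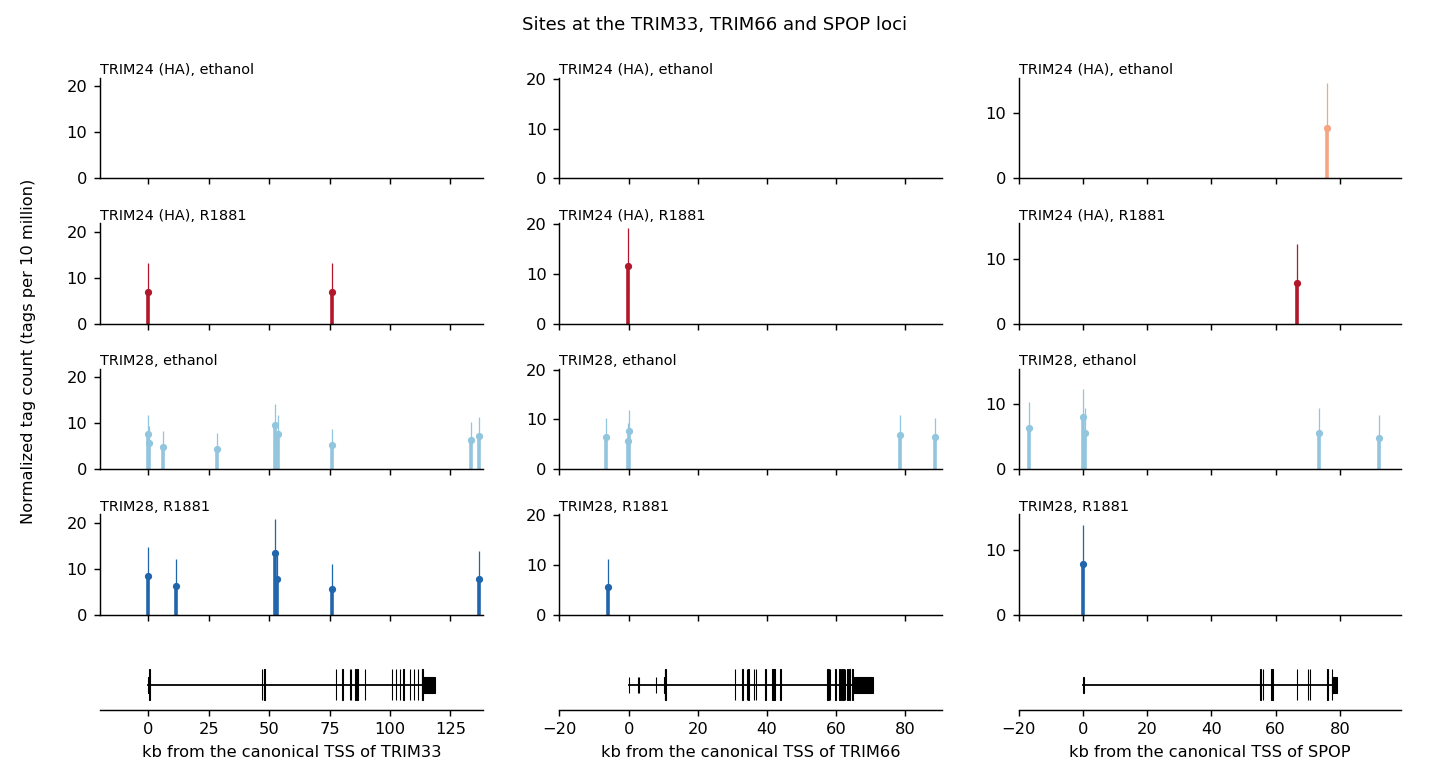
Sites at the TRIM33, TRIM66 and SPOP loci in the 4 libraries, drawn as for TRIM24 with the vertical axis scaled to each locus. TRIM24 protein with ethanol has no site at TRIM33 or TRIM66, and at SPOP its sites (7.8 and 6.2) stand at the 3′ end of the gene while the TRIM28 sites of 8.0 and 7.7 stand at the 5′ end.

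Sites of TRIM24 protein in coding exons away from the canonical TSS thus occurred in TRIM24, TRIM28 and SPOP. This class was defined after the sites had been seen, as sites centred in a coding exon of the canonical transcript more than 2 kb from its TSS. With ethanol 2 of the 5 genes had one (TRIM28 and SPOP), where 0.273% of all protein-coding genes did. With R1881 it was 3 of 5 (TRIM24, TRIM28 and SPOP), where 0.491% of genes did. For TRIM28 protein it was 0 of 5 under both treatments, against 4.03% of genes with ethanol and 2.55% with R1881. Of the sites in the bodies of the 5 genes more than 2 kb from the canonical TSS, coding exons held 2 of 2 for TRIM24 protein with ethanol, 4 of 5 with R1881, 0 of 12 for TRIM28 with ethanol and 0 of 7 with R1881. Over all genes the corresponding shares were alike in the 4 libraries, at 4.8%, 4.07%, 4.29% and 4.46%. With R1881 TRIM24 was 1 of 3 genes with 2 such sites of TRIM24 protein, beside ACKR3 and FOXA1, and no gene had more. The exon 16 site of TRIM28 was the sixth of 102 such sites by strength.

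**Figure D4:**
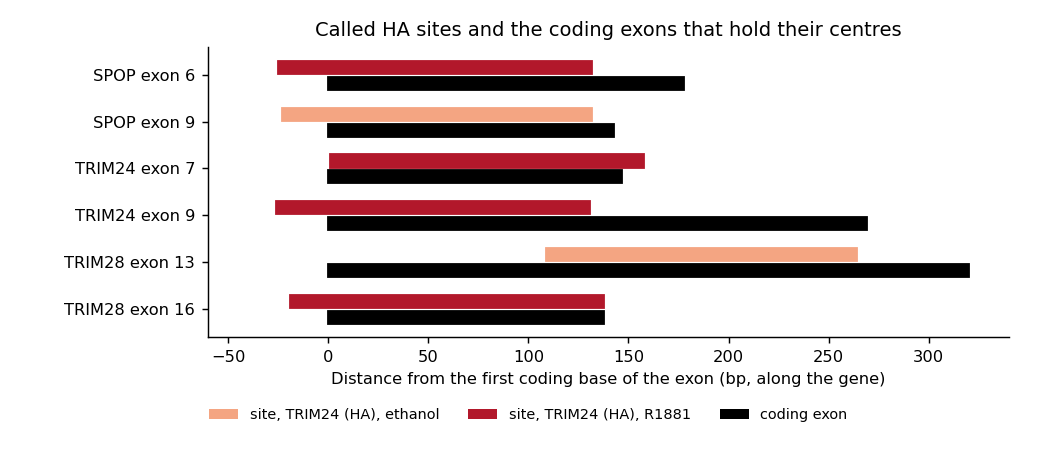
The 6 HA sites centred in coding exons more than 2 kb from the canonical TSS (coloured bars) above the coding bases of that exon (black bars). The horizontal axis is the distance from the first coding base in bp, along the gene. Each coloured bar begins or ends close to a border of its exon, except in exon 13 of TRIM28, where the site lies inside it. The caller gave all sites of a library 1 width, so the bars do not show how far the tags reached. That width is close to the length of several of these exons, and the class required the centre to lie inside. Part of the match between bars and exons therefore follows from the definition.

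The HA libraries come from cells that carry an introduced TRIM24 coding sequence. Tags from that sequence and tags from the exons of the TRIM24 gene itself cannot be told apart in the lists, and this holds for the site in exon 1 as for those in exons 7 and 9. It would also hold for the R1881 site of TRIM28 protein in exon 1 if that library came from HA-TRIM24 cells. For TRIM28 and SPOP the labels name no introduced sequence in these cells, but the lists do not show whether the tags of their exon sites come from the chromosomal exons or from another copy of the coding sequence, which was not tested and would need the reads. Intronic or upstream sites of TRIM24 protein were called only at TRIM33 and TRIM66, with R1881.

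Counted over the 5 genes, TRIM24 protein had a site within 2 kb of some annotated TSS at 3 genes with ethanol (TRIM24, TRIM28 and SPOP) and at 5 with R1881. Over all protein-coding genes the shares were 10.6% and 18.4%. TRIM28 had one at 5 genes with ethanol and at 4 with R1881 (not TRIM66), against 56.3% and 37.4% of all genes. When only the canonical TSS counted, the numbers for TRIM24 protein were 1 (TRIM24) and 4 (not SPOP), against 8.76% and 15.5% of genes, and those for TRIM28 were 5 and 4, against 49.6% and 30.5%. In the gene body or 20 kb flanks TRIM24 protein had a site at 3 and 5 of the 5 genes, against 23.5% and 37.3% of all genes, and TRIM28 at 5 and 5, against 84.7% and 71.8%. Most genes had a TRIM28 site in body or flanks, and the TRIM28 counts there are near that background. For TRIM24 protein with ethanol the canonical TSS leaves TRIM24 alone. The shares of all genes are not matched for gene length or number of TSSs. TRIM24, TRIM33, SPOP and TRIM66 are 130, 118, 79.3 and 70.7 kb long, and SPOP and TRIM28 have 23 and 15 annotated TSSs. A longer gene or more TSSs give more room for a call, so an excess over the shares cannot be read as particular to these genes.

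Sites of both proteins within 2 kb of some annotated TSS were found at 3 genes with ethanol and 4 with R1881, where 10.1% and 13.5% of all genes had them. At SPOP, and at TRIM28 with ethanol, the site of TRIM24 protein counts only through short transcripts that start inside the gene. By the canonical TSS both proteins had a site at TRIM24 with ethanol, and at TRIM24, TRIM28 and TRIM33 with R1881. The share of all genes was not counted that way. The sites themselves seldom coincided. Of the sites of TRIM24 protein at the 5 loci, 0 of 3 overlapped a TRIM28 site with ethanol and 1 of 10 with R1881, in exon 1 of TRIM28. Over the whole lists 63.8% and 50.1% of TRIM24 sites overlapped a TRIM28 site. With centres within 500 bp of each other counted instead, it was 1 of 3 and 5 of 10, against 74.8% and 59.9% of the lists.

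**Figure D5:**
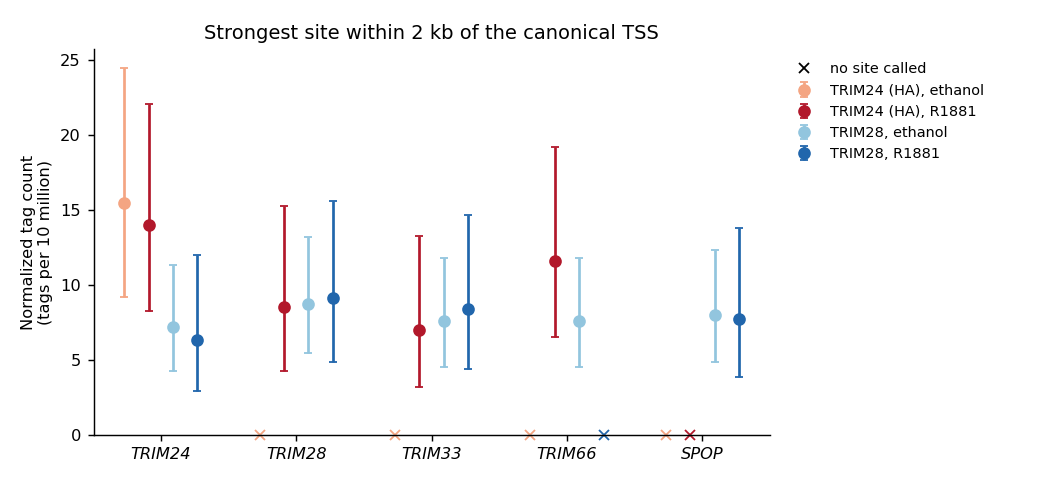
Normalized tag count of the strongest site within 2 kb of the canonical TSS of each gene, in each library, with exact Poisson 95% intervals on the tags. Crosses at 0 mark genes without a called site, which means under the required score or the local criteria of the caller in that library. TRIM24 protein at TRIM24 is the highest pair (15.5 and 14.0), TRIM28 has a site at each gene except TRIM66 with R1881, and SPOP has none of TRIM24 protein. The tags of that pair cannot be told apart from tags of the introduced TRIM24 coding sequence.

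With R1881 more sites of TRIM24 protein were called at the loci than with ethanol, 10 against 3, and fewer of TRIM28, 14 against 33. The lists as a whole moved the same way, and the TRIM28 library with ethanol was the deepest. When only sites of at least 6.0 normalized tags were kept in all 4 lists, the numbers were 3, 10, 23 and 12. This cut does not make the calling thresholds of the libraries equal. A ratio of R1881 to ethanol was given only where a region was called under both treatments. That was so at 1 of 12 regions of TRIM24 protein and 9 of 38 of TRIM28. The ratios ran from 0.862 to 1.4, and the interval covered 1 at all 10. Regions called under 1 treatment, where a change could be larger, are left out by this choice. Intervals as wide as 0.391 to 2.83 also do not show equal strength.

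In the 200 bp around their centres, the 5 R1881 sites of TRIM28 within 2 kb of a TSS of these genes had 64.5% to 79.0% G and C, and the 7 in introns 36.0% to 46.0%. With ethanol the sites within 2 kb of a TSS had 45.5% to 77.0%, so these overlapped the intronic sites. The sites of exons 7 and 9 of TRIM24, called for TRIM24 protein, had 38.0% and 41.5%, against 81.0% at exon 1. For TRIM28 the median of the whole lists was 48.5% and 46.5%. The motif consensuses of FOXA1, the androgen response element, CTCF, ETS, YY1, NRF1 and Sp1 were searched on both strands of the same windows, with 1 mismatch allowed for the androgen response element, 3 for CTCF and 0 for the others. They matched none of the 13 sites of TRIM24 protein and 1 of the 47 TRIM28 sites, the weak ethanol site of 4.8 normalized tags beyond the 3′ end of SPOP, which held an androgen response element. The shares of the whole lists with each match were also low, from 0.052% for NRF1 to 1.2% for the androgen response element, so no match in a window says little.

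The genes with promoter values most like those of TRIM24 over the 4 libraries, by Euclidean distance on log2(strongest promoter site + 1), were ERAP1 (0.395) and, tied at 0.415, ENSG00000285976 and PTP4A1. ERAP1, which trims peptides for antigen presentation, had 14.6, 17.1, 8.7 and 7.0 normalized tags in the order of libraries used above, TRIM24 before TRIM28 and ethanol before R1881. Those most like TRIM28 were DHRS13 (0.206), PTMA (0.309), which encodes prothymosin alpha, and ZNF248 (0.335).

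The other TRIM genes of the annotation gave a comparison within the family. Of 63 of them, TRIM24 protein had a promoter site at 5 with ethanol (7.94%) and 8 with R1881 (12.7%), and TRIM28 at 31 (49.2%) and 22 (34.9%) beside shares of all genes of 10.6%, 18.4%, 56.3% and 37.4%. The strongest were TRIM7, with 50.8 and 95.5 normalized tags of TRIM24 protein, TRIM3, with 9.5 and 73.0, and TRIM41, with 41.4 and 56.7, so that with R1881 all 3 were above the 14.0 at TRIM24. Whether these sites also lie near a TSS of a neighbouring gene was not examined, unlike at the 5 loci. Among SPOPL, CUL3, RBX1 and 5 further CUL3 adaptors, TRIM24 protein was called at 3 and 4 of 8 and TRIM28 at 7 and 4. KEAP1, the adaptor that controls NRF2, had 12.9, 10.9, 9.1 and 8.4 in the order above. NCOA3, a nuclear receptor coactivator and substrate of SPOP, had 12.1 normalized tags of TRIM24 protein with ethanol and 11.6 with R1881. Among 14 partners of TRIM28 and TRIM24 the counts were 4, 4, 14 and 11, led by CBX1, a heterochromatin protein, with 15.5 and 12.6 of TRIM28. Of KLK3, KLK2, TMPRSS2 and FKBP5, androgen target genes, 1 and 2 had a promoter site of TRIM24 protein and 3 and 3 of TRIM28.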

How the data were processed

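Sites came from 4 libraries, 1 per condition. The authors aligned reads to hg19 with BWA 0.6.1 and called sites per library with HOMER 4.1, with no input library, at a false discovery rate of 0.001, 4-fold over the local 10 kb. The deposited signal is the normalized tag count, scaled to 10000000 tags. The deposited share of well-placed tags (a fraction), score, fold over the local region and unadjusted p-value were read but only the signal and fold are printed. The headers record a limit of 1 tag per base. Labels and legend differ on the cells of the TRIM28 libraries, and labels and methods on the sequencer and shear size.

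Here, normalized tags were turned into whole tags (100% of sites, tolerance at most 0.126 tags), sites were placed on GENCODE 44 (GRCh37) by their centre, and intervals are exact Poisson or binomial (scipy 1.17.1). Counting was tested on simulated sites. Alignment used Biopython 1.88. With 1 library per condition no test was made. The members and lists were chosen with earlier results of these data known. Named were the 5 genes, their promoter sites, the 3 strongest other sites per locus and library, neighbours holding a flank site, the 3 most like genes of TRIM24 and TRIM28 and the 3 strongest genes per list by R1881 signal. The rest of the sites are named as well where they complete a locus. The list of SPOP substrates is not reported here as a whole.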

Additional observations from a re-analysis of the deposited data

Results flagged for a closer look

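Under R1881 called sites became more numerous for TRIM24 protein and less numerous for TRIM28 at 4 of the 5 genes, and with 1 library per condition the difference was not tested. The whole lists moved the same way, from 5232 to 9363 sites for TRIM24 protein and from 58201 to 34574 for TRIM28. The shift is therefore not particular to these genes. Over the 5 loci R1881 minus ethanol was 7 for TRIM24 protein (3 to 10) and -19 for TRIM28 (33 to 14). It was 2 and -5 at TRIM24, 2 and -3 at TRIM28, 2 and -3 at TRIM33, and 1 and -4 at TRIM66. At SPOP TRIM24 protein had 1 site under both treatments, while TRIM28 went from 5 to 1, so that TRIM28 had fewer sites at all 5 genes. The TRIM28 library with ethanol held 25145171 tags and that with R1881 14231181, and the part of depth in the fall was not tested beyond the common minimum of 6.0 normalized tags, at which TRIM28 had 23 and 12.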

How the results depend on the processing

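Of 78 counts under other settings, 56 stayed within 1.5 times the reported count. With the canonical TSS only, TRIM24 protein with ethanol had a promoter site at 1 of the 5 genes, not 3. With sites below the median strength of each list left out it was 1 with ethanol and 3 with R1881, the gene body and flanks also gave 1 and 3, and the sites of the loci numbered 1, 3 and, for TRIM28 with R1881, 9. With a fold over the local region of at least 8, promoter sites remained at 2 genes for TRIM24 protein with R1881, at 1 for TRIM28 with ethanol and at 2 with R1881, and the sites numbered 5, 5 and 7. Leaving out coding exon sites over 2 kb from the canonical TSS, an alternative chosen after seeing the data, left TRIM24 protein with ethanol 1 gene by promoter, 1 by body and flanks and 1 site, and with R1881 6 sites. Overlap of the proteins with R1881 was 0 sites with at least 0.5 of each site covered, 0 above the median strength of both lists and 5 with centres within 500 bp, and with ethanol 1 with centres within 500 bp. Promoters of 1 or 5 kb, coding transcripts, any overlap, other flanks and the common minimum moved no count by over 1.5 times. The depth limits what a missing call says: the lowest sites held 7 tags for TRIM24 protein, 10 for TRIM28 with ethanol and 8 with R1881. No paired analysis was possible because each condition has 1 library and no result comes from a test.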
